A study of Arabidopsis thaliana with 60 samples.

Results

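The change in transcript levels from 0 to 8 h after dexamethasone infiltration was compared between the control lines of the series, mYFP and ppsdes. For each gene the log2 change in mYFP (8 h minus 0 h) minus that in ppsdes was tested. The comparison used 12 of the 60 libraries, 3 in each of 4 groups, and covered 19929 of the 32678 genes counted. A positive difference marks a gene that rose more, or fell less, in mYFP than in ppsdes. A difference was called where the Benjamini-Hochberg adjusted p of edgeR's quasi-likelihood test was under 0.01 and its size was over 1 on the log2 scale.

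Poly(A) RNA was sequenced from leaf discs of 4-week-old Arabidopsis thaliana Col-0 plants kept in short days, with 6 discs from 6 plants pooled in each library. The mYFP line is wild type with a transgene (DEXp:mYFP) from which dexamethasone induces monomeric yellow fluorescent protein. The ppsdes line has no transgene and is mutated in PEN2 (pen2-1), PAD4 (pad4-1), SAG101 (sag101-2), AOS (dde2-2), EIN2 (ein2-1) and the isochorismate synthase gene EDS16 (sid2-2). Leaves of both lines received 1 µM dexamethasone by syringe. The comparison therefore asks where the 8 h course of the controls, against which the other lines are read, depends on the control. Genotype, transgene and count table changed together between the lines. A shift common to all libraries of a table drops out of the difference. A shift that changed over the course differently in the tables stays in it. Genotype, transgene and such a shift cannot be told apart in the difference. The other lines, MLACC and MLACC ppsdes, carry an inducible fusion of mYFP with the coiled-coil part of the barley receptor MLA in wild type and in ppsdes, and appear below only beside genes of the control comparison.

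The mutated genes belong to the main routes of defence signalling in leaves. PEN2 is a myrosinase of pre-invasive defence, PAD4 and SAG101 are partners of EDS1, AOS acts in jasmonate synthesis, EIN2 transmits the ethylene signal and EDS16 makes most of the salicylic acid formed on infection. Salicylic acid acts through NPR1 and TGA transcription factors, which bind TGACG motifs. Beside these routes, the circadian clock takes a large share of leaf transcripts through a daily cycle.

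The 12 libraries held 18816903 to 23911156 gene counts. All 8 h libraries were nearest to their own group among the groups of the series, while the 3 mYFP libraries at 0 h were nearest to MLACC at 0 h and 1 ppsdes library at 0 h was nearest to MLACC ppsdes at 0 h. Libraries of a group differed by a chi-square per gene of 10.02 to 44.3, so none repeated another, and the highest values were those of ppsdes 8 h replicate 1. In counts scaled to a common library size (CPM), AOS stood at 106 to 112 CPM in mYFP at 0 h and 3.63 to 5.32 CPM in ppsdes, and EDS16 at 15.1 to 17.8 CPM and 0.311 to 0.837 CPM, in the direction of the labels. PAD4 overlapped between the lines at 0 h, at 3.52 to 6.34 CPM and 0.881 to 7.88 CPM. None of the 6 mutated genes was called in the difference of the courses.

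Genes called in both lines nearly all moved the same way. From 0 to 8 h, 4460 genes were called in mYFP (22.4% of those tested), of which 2207 rose (11.1%) and 2253 fell (11.3%). In ppsdes 4049 were called (20.3%), of which 1950 rose (9.78%) and 2099 fell (10.5%). Of the 3026 genes called in both lines 3019 moved the same way and 7 moved in opposite ways. The difference of the courses was called for 30 genes (0.151%). It was positive for 26 (0.13%) and negative for 4 (0.0201%). An adjusted p under 0.05 was reached by 62 genes and an unadjusted p under 0.05 by 1940. The median difference of all genes was -0.0027 on the log2 scale. The size of the difference was over 1 for 2415 genes and its median SE was 0.35. Genes without a call were thus not shown to be alike in the lines.

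**Figure D1:**
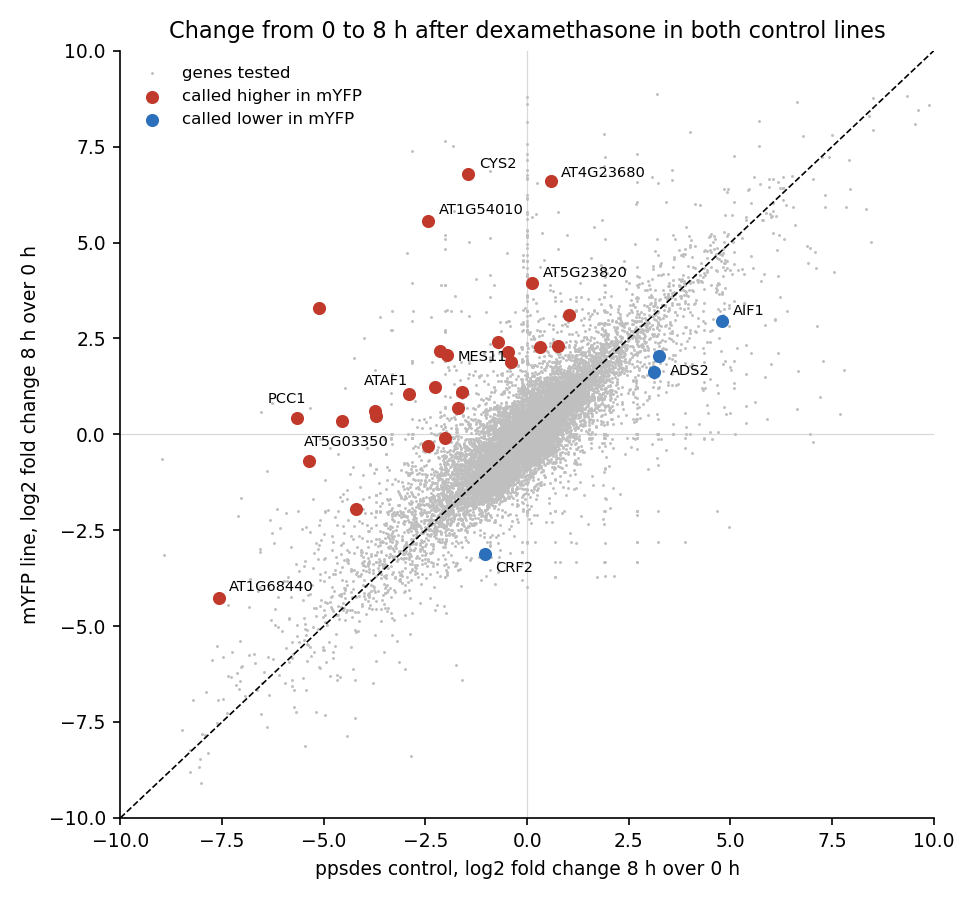
Log2 fold change from 0 to 8 h of every gene tested in ppsdes (x axis) and in mYFP (y axis), with a line of equal change and the 30 called genes in colour. CYS2 lies far above the line, at 6.78 in mYFP and -1.44 in ppsdes.

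How many genes were called depended on single libraries. Leaving out each of the 12 in turn gave 15 to 33 calls. There were 15 without mYFP 0 h replicate 3 or ppsdes 8 h replicate 3, 16 without mYFP 0 h replicate 2 or ppsdes 0 h replicate 2, and 17 without mYFP 8 h replicate 1, mYFP 8 h replicate 2 or ppsdes 8 h replicate 1. Of the 30 genes 10 were called in all 12 fits, namely CYS2, EEL, AT4G39320, MES11, AT1G33770, AT5G23820, ATAF1, AT2G34810, AT1G43886 and AT1G19370. DESeq2 called 66 genes, the 30 among them. Fewer libraries in the fit also ended calls. With only the 12 libraries fitted 14 of the 30 were called, and the others were CRF2, ADS2, AT4G02760, AT1G64760, MYBC1, AT2G22420, AT1G43886, AT5G66052, AT2G47010, AT1G33770, AT3G22235, AT3G50800, AT5G03350, PCC1, AT1G54010 and MES1. With the 30 control libraries fitted 23 were called, and the others were AT1G64760, AT2G22420, AT1G68440, AT3G22235, AT5G03350, PCC1 and MES1. AT1G33770 and AT1G43886 thus kept their calls in each fit that dropped a library, but lost them in the fit of the 12 libraries alone. AT5G03350 was also lost with DESeq2's size factors and with no filter on low counts.

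Taking each line on its own, the 26 genes with a positive difference fell into 4 classes. In 9 only the change of mYFP passed the thresholds and in 9 only that of ppsdes. In 5 the lines moved in opposite ways, and in 3 the same way. In the 4 genes with a negative difference the lines moved the same way. Between the lines, 70 genes were called at 0 h (0.351%), 41 higher in mYFP (0.206%) and 29 lower (0.146%), among them 3 of the 30. The 0 h count fell to 28 without ppsdes 0 h replicate 2, 32 without mYFP 0 h replicate 2, 36 without ppsdes 0 h replicate 3 and 41 without mYFP 0 h replicate 3. At 8 h 346 were called (1.74%), 272 higher (1.36%) and 74 lower (0.371%), among them 24 of the 30. The 30 were chosen by a test on these same 0 and 8 h libraries, so nothing is read from the 3 and the 24. The 8 h count fell to 155 without mYFP 8 h replicate 1, 171 without ppsdes 8 h replicate 1, 176 without ppsdes 8 h replicate 3 and 219 without mYFP 8 h replicate 2. The 8 h libraries of the lines did not overlap for any of the 30, to which their choice contributes, and the 0 h libraries overlapped for 14. Overlap was not counted over all genes tested, so nothing is read from either count.

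CYS2 (AT2G31980, chromosome 2, 13609093 to 13609955 in TAIR10.1) encodes a phytocystatin, an inhibitor of cysteine proteases. In mYFP it stood at 1.49, 1.57 and 0.975 CPM at 0 h and at 156, 186 and 103 CPM at 8 h. In ppsdes it stood at 0.725, 3.1 and 2.5 CPM at 0 h and at 0.433, 1.22 and 0.704 CPM at 8 h. The lines overlapped at the start and were far apart at 8 h, where every mYFP library was above every ppsdes library. The choice of the gene by these libraries favours such a separation. The difference was 8.22 ± 0.68 (log2, SE, adjusted p = 3.06e-11), from a rise of 6.78 ± 0.50 in mYFP, while the ppsdes change of -1.44 ± 0.49 missed the threshold (adjusted p = 0.0141).

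The window from 250 bases before to 50 after the start of CYS2 (RefSeq TAIR10.1 chr2:13609906-13610205, minus strand) is shown because this gene leads the comparison, with the G-box CACGTG in capitals.
CYS2: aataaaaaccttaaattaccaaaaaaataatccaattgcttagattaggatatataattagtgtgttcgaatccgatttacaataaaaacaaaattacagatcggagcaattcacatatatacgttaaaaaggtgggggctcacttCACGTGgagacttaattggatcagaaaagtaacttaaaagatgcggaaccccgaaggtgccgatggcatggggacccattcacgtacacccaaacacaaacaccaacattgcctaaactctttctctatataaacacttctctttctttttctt
The G-box, a core that bZIP and bHLH factors bind, lies at -104 from the start. It was found in 11.5% of the 26 promoters with a positive difference and in 8.79% of the 19792 promoters examined. These are matches of letters and say nothing of binding.

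CYS2 rose early in every line with a transgene. At 2 h it stood at 53.8 to 101 CPM in mYFP, 125 to 215 CPM in MLACC and 81.4 to 149 CPM in MLACC ppsdes, against 0.364 to 0.952 CPM in ppsdes. MLACC ppsdes has the 6 mutations and a transgene, and CYS2 rose there by 6.22 ± 0.48 from 0 to 2 h (adjusted p = 4.45e-13). Of the 26 genes, 12 rose from 0 to 2 h in mYFP beside 6.79% of all genes, 14 in MLACC beside 12.7%, 10 in MLACC ppsdes beside 9.18% and 1 in ppsdes beside 7.35%. The 9 that rose in all 3 lines with a transgene were CYS2, MES11, ATAF1, AT5G23820, AT4G39320, MYBC1, BETA-UP, AT1G64760 and ABCB14, and of these ABCB14 alone also rose in ppsdes. The 2 h changes of mYFP and ppsdes share the 0 h libraries with the 8 h difference, and those of the MLACC lines share none. The MLACC lines express a cell-death-inducing domain, so transgene and MLACC cannot be told apart in them.

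MES11 (AT3G29770) belongs to the methyl esterases, a family of which some members cleave methylated hormones. It stood at 10.5 to 12.4 CPM in mYFP and 10.09 to 11.2 CPM in ppsdes at 0 h. At 8 h it stood at 49.9, 60.8 and 36.2 CPM in mYFP and 1.86, 2.99 and 3.33 CPM in ppsdes. From a shared start it thus rose by 2.07 ± 0.29 in mYFP and fell in ppsdes (-1.97 ± 0.31). The difference was 4.04 ± 0.42 (adjusted p = 3.03e-08), and in MLACC ppsdes the level was 66.2 to 183 CPM at 2 h.

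ATAF1 (AT1G01720), a NAC transcription factor of stress and abscisic acid responses, stood at 17.5, 9.93 and 19.8 CPM in mYFP and 29.9, 32.8 and 29.4 CPM in ppsdes at 0 h. At 8 h the values were 40.4, 45.0 and 25.1 CPM and 6.7, 7.1 and 5.26 CPM. Its library values were lower in mYFP before and higher afterwards, with no overlap at either time. Between the lines the gap was called at 8 h (2.54, adjusted p = 2.74e-06) but not at 0 h (-0.97, adjusted p = 0.147). The difference was 3.5 ± 0.48 (adjusted p = 1.32e-05). In MLACC ppsdes it stood at 28.4 to 31.6 CPM at 0 h and 69.6 to 90.01 CPM at 8 h.

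**Figure D2:**
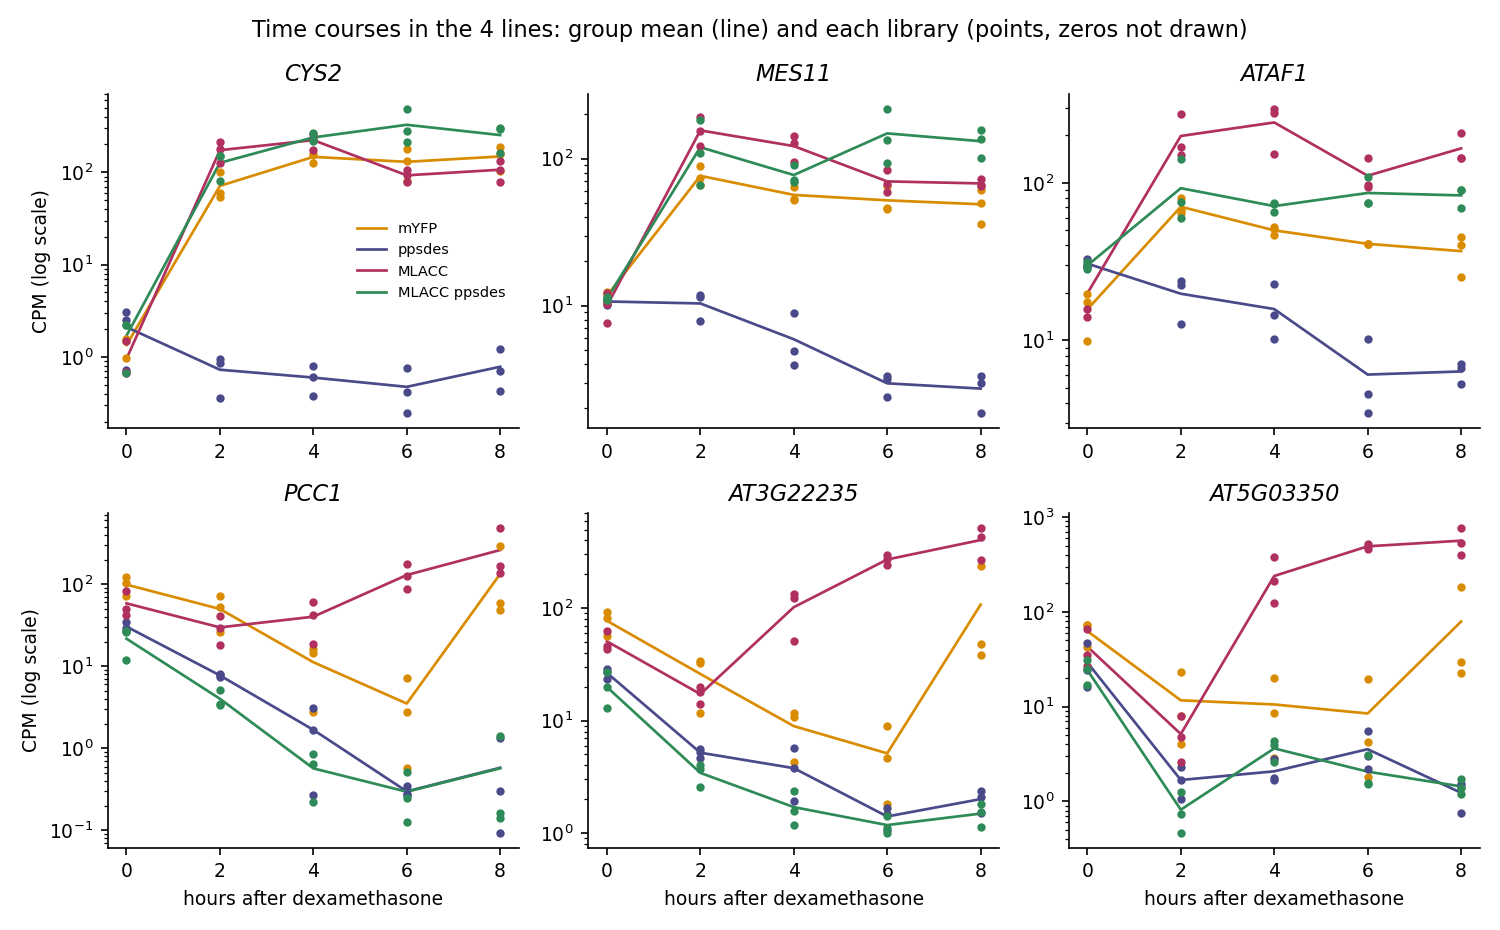
Level in CPM (log axis) against hours after dexamethasone in the 4 lines, with a point per library and a line through the group means. CYS2 goes above 50 CPM by 2 h in the lines with a transgene and stays under 4 CPM in ppsdes, whereas PCC1 is at most 1.41 CPM at 8 h in both ppsdes lines.

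AT5G23820, which encodes a protein with an MD-2-related lipid recognition domain, stood at 6.58 to 9.93 CPM in mYFP and 5.7 to 8.74 CPM in ppsdes at 0 h. At 8 h it stood at 116, 159.6 and 99.1 CPM and 7.61, 9.27 and 6.8 CPM. It rose in mYFP and its change in ppsdes was 0.13 ± 0.30. The difference was 3.8 ± 0.43 (adjusted p = 1.79e-07). AT4G39320, annotated as microtubule-associated protein-like, went from 0.829–1.28 CPM to 3.59–6.37 CPM in mYFP and from 1.66–3.3 CPM to 0.389–0.811 CPM in ppsdes, in opposite ways (4.3 ± 0.71, adjusted p = 0.000627).

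MYBC1 (AT2G40970), a MYB-type factor, rose from 1.66–2.54 CPM to 14.5–23.1 CPM in mYFP and from 1.87–2.02 CPM to 3.14–4.71 CPM in ppsdes. The difference of 2.08 ± 0.42 (adjusted p = 0.00891) was called in 1 of the 12 fits that left out a library, at 1.9 to 2.24 and an adjusted p of up to 0.0581 without mYFP 0 h replicate 2. BETA-UP (AT5G64370), the beta-ureidopropionase of uracil breakdown, rose from 13.3–15.9 CPM to 61.1–79.5 CPM in mYFP, while ppsdes went from 13.2–15.9 CPM to 20.5–26.3 CPM, a change under the fold threshold. Its difference of 1.55 ± 0.29 (adjusted p = 0.00357) was called in 5 of the 12 fits that left out a library, at 1.45 to 1.66 and an adjusted p of up to 0.0275 without ppsdes 8 h replicate 1. The family 17 glycosyl hydrolase gene AT1G64760 rose from 4.18–11.7 CPM to 36.8–49.7 CPM in mYFP, with 14.2 to 17.8 CPM and 19.1 to 21.3 CPM in ppsdes. Its difference of 1.96 ± 0.36 (adjusted p = 0.00245) was called in 7 of the 12 fits that left out a library, at 1.63 to 2.25 and an adjusted p of up to 0.0172 without mYFP 0 h replicate 2.

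**Figure D3:**
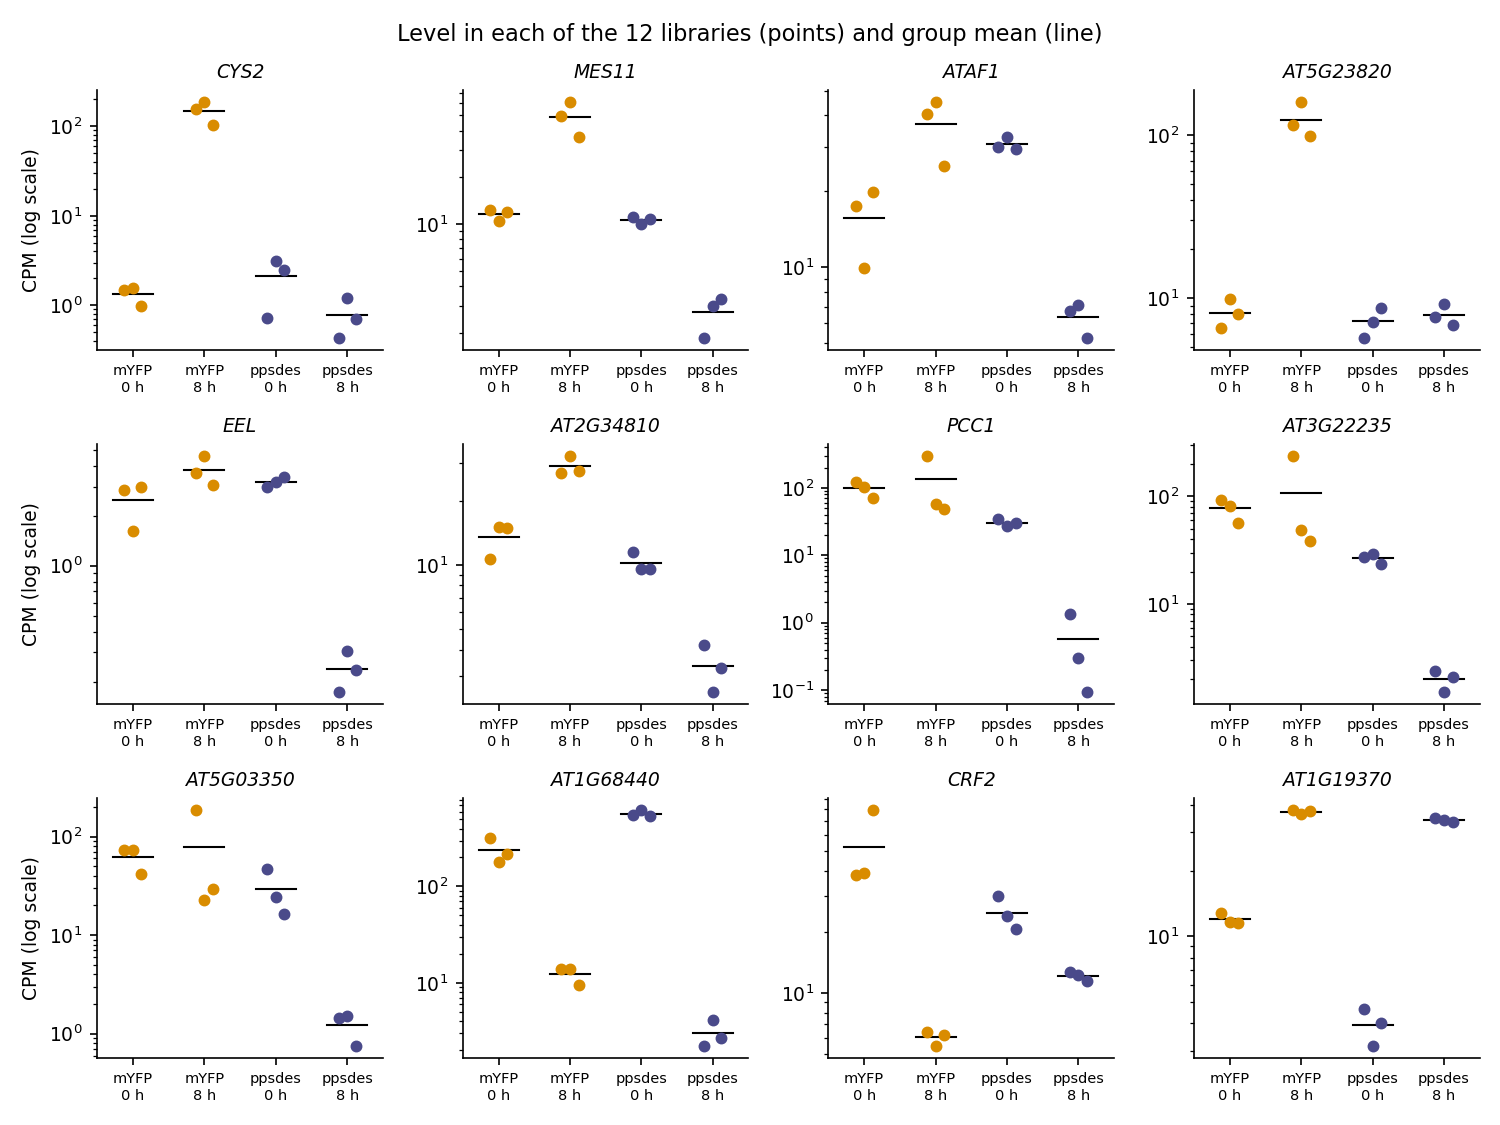
Level in CPM (log axis) of 12 of the 30 genes in each of the 12 libraries, with a point per library and a line at the group mean. In PCC1, mYFP 8 h replicate 1 stands above its partners (294 against 58.4 and 49.1 CPM), and in AT1G19370 the lines are further apart at 0 h than at 8 h.

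PCC1 (AT3G22231, chromosome 3, 7845823 to 7846833), pathogen and circadian controlled 1, encodes a small cysteine-rich membrane protein. It stood at 122, 103 and 71.3 CPM in mYFP at 0 h and 294, 58.4 and 49.1 CPM at 8 h. In ppsdes it fell from 34.5, 27.3 and 29.7 CPM to 1.34, 0.304 and 0.0939 CPM. The lines did not overlap at either time, and mYFP 8 h replicate 1 was far above its partners. At 6 h mYFP stood at 0.568 to 7.2 CPM, below each of its 8 h libraries. The difference was 6.1 ± 1.09 (adjusted p = 0.00205), and the call was lost without mYFP 0 h replicate 3 (5.91, adjusted p = 0.0125), without mYFP 8 h replicate 1 (4.78, adjusted p = 0.0224), without ppsdes 8 h replicate 2 (5.8, adjusted p = 0.0126) and without ppsdes 8 h replicate 3 (5.6, adjusted p = 0.0174).

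AT3G22235, a cysteine-rich transmembrane module gene whose closest Arabidopsis protein is PCC1, lies 7585 bases from it (chromosome 3, 7854419 to 7855814). It stood at 56.9 to 92.6 CPM in mYFP at 0 h and 236, 48.5 and 38.5 CPM at 8 h, and fell in ppsdes from 23.7–29.0 CPM to 1.52–2.38 CPM. Its difference of 4.2 ± 0.70 (adjusted p = 0.000643) was lost without mYFP 8 h replicate 1 (2.89, adjusted p = 0.0166). The legume lectin gene AT5G03350, which salicylic acid induces, stood at 72.8, 73.0 and 42.2 CPM in mYFP at 0 h and 185, 22.9 and 29.3 CPM at 8 h, and fell in ppsdes from 47.1, 24.2 and 16.2 CPM to 1.43, 1.52 and 0.751 CPM. In both genes mYFP 8 h replicate 1 was again the highest library. The difference of AT5G03350, 4.9 ± 1.00 (adjusted p = 0.00947) was called in 3 of the 12 fits that left out a library, at 3.3 to 5.33 and an adjusted p of up to 0.181 without mYFP 8 h replicate 1.

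In MLACC ppsdes at 8 h, PCC1 stood at 0.142 to 1.41 CPM, AT3G22235 at 1.13 to 1.8 CPM and AT5G03350 at 1.2 to 1.74 CPM. In MLACC they stood at 135 to 481 CPM, 271 to 513 CPM and 394 to 761 CPM. All 3 genes were thus low at 8 h in both lines with the 6 mutations, with and without a transgene, a description with no test.

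The windows of these 3 genes are shown because each holds the motif of TGA factors, TGACG, which is in capitals on either strand. They lie at RefSeq TAIR10.1 chr3:7846784-7847083, chr3:7855765-7856064 and chr5:816621-816920, all on the minus strand.
PCC1: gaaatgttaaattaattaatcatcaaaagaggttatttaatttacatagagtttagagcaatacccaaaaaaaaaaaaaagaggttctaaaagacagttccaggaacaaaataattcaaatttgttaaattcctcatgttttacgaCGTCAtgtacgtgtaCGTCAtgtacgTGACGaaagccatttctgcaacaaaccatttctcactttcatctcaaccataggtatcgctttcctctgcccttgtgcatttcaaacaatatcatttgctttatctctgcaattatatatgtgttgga
AT3G22235: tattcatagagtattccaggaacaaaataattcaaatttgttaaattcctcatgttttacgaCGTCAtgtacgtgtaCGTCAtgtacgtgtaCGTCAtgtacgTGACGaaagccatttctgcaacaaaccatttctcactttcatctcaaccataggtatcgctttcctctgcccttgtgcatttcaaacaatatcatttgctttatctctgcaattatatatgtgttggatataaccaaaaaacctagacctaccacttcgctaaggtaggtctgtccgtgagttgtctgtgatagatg
AT5G03350: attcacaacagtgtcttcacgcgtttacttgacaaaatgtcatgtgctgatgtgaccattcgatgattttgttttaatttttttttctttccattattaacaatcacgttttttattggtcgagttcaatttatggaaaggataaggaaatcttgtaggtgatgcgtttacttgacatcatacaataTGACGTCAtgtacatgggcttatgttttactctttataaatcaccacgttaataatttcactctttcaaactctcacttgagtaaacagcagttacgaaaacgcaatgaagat
The motif was found at 3 places in PCC1 and 4 in AT3G22235. In AT5G03350 it was found on both strands of 1 palindrome, TGACGTCA. It was searched after the results had been seen, and 26.9% of the 26 promoters and 23.9% of all 19792 hold it at least once. The PCC1 and AT3G22235 windows share an unbroken run of 155 bases. Of the 50-base words in their exons, 38.2% in PCC1 and 85.7% in AT3G22235 occur elsewhere in the genome. Reads placed at several sites were not counted for a gene, so the values of this pair are uncertain. How many of these words the pair share with each other was not counted, so whether their values are independent is not known.

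EEL (AT2G41070), a bZIP factor known for its part in seed gene expression, fell in ppsdes and kept its level in mYFP. It stood at 2.87, 1.62 and 2.97 CPM in mYFP and 3.0, 3.2 and 3.42 CPM in ppsdes at 0 h. At 8 h it stood at 3.64, 4.58 and 3.08 CPM and 0.173, 0.304 and 0.235 CPM. All 3 ppsdes libraries were then below all 3 of mYFP, a separation that the choice of the gene by these libraries favours. The difference was 4.34 ± 0.58 (adjusted p = 1.09e-05), with -3.74 ± 0.46 in ppsdes and 0.6 ± 0.35 in mYFP (adjusted p = 0.159).

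The protein kinase gene AT1G33770 fell in ppsdes from 1.63–6.68 CPM to 0.389–0.71 CPM, with 2.04 to 3.29 CPM and 5.01 to 6.28 CPM in mYFP (3.96 ± 0.65, adjusted p = 0.000627). The pseudogene AT1G43886 fell from 8.95–11.6 CPM to 3.03–3.61 CPM in ppsdes, with 4.61 to 10.2 CPM and 10.11 to 15.5 CPM in mYFP (2.39 ± 0.37, adjusted p = 0.000246). Both overlapped between the lines at 0 h. ABCB14 (AT1G28010), an ATP-binding cassette transporter that imports malate into guard cells, rose by 2 h to 80.3 to 111 CPM in mYFP and 55.1 to 92.9 CPM in ppsdes, and at 8 h stood at 17.44 to 22.9 CPM and 3.37 to 4.0 CPM, from 20.6 to 34.7 CPM and 18.5 to 21.9 CPM at 0 h. Its difference of 2.13 ± 0.42 (adjusted p = 0.00632) was called in 2 of the 12 fits that left out a library, at 2.00 to 2.43 and an adjusted p of up to 0.035 without mYFP 0 h replicate 2.

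AT3G50800, of unknown function, fell in ppsdes from 2.66–6.3 CPM to 0.0469–0.203 CPM, with 3.61 to 12.6 CPM and 3.95 to 4.49 CPM in mYFP. The difference of 4.67 ± 0.95 (adjusted p = 0.00887) was called in 2 of the 12 fits that left out a library, at 4.32 to 5.4 and an adjusted p of up to 0.0629 without ppsdes 8 h replicate 3. AT4G02760, an RNI-like protein gene, differed at 0 h, at 3.18 to 3.66 CPM in mYFP against 5.02 to 12.9 CPM in ppsdes, and stood at 3.03 to 3.42 CPM and 1.83 to 2.38 CPM at 8 h. Its difference of 1.91 ± 0.33 (adjusted p = 0.00122) was lost without ppsdes 0 h replicate 3 (1.55, adjusted p = 0.0152) and without ppsdes 8 h replicate 3 (1.79, adjusted p = 0.0108). Here ppsdes came down from a higher start.

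AT1G68440, of unknown function, fell in both lines, from 317, 178 and 216 CPM to 13.8, 13.8 and 9.38 CPM in mYFP and from 557, 619 and 537 CPM to 2.21, 4.11 and 2.68 CPM in ppsdes. The order of the lines turned over in the library values, with no overlap at either time. Between the lines the gap was called at 8 h (2.05, adjusted p = 0.00246) but not at 0 h (-1.27, adjusted p = 0.112). The difference of 3.32 ± 0.60 (adjusted p = 0.00234) was called in 8 of the 12 fits that left out a library, at 3.14 to 3.61 and an adjusted p of up to 0.0209 without ppsdes 8 h replicate 1. The ammonium transporter gene AMT1;2 (AT1G64780) turned over in the same way, from 44.9–46.8 CPM to 8.36–15.2 CPM in mYFP and from 75.4–85.0 CPM to 3.14–5.54 CPM in ppsdes. Its gap between the lines was called at 8 h (1.45, adjusted p = 0.00243) but not at 0 h (-0.8, adjusted p = 0.191). Its difference of 2.25 ± 0.43 (adjusted p = 0.00447) was called in 4 of the 12 fits that left out a library, at 2.02 to 2.48 and an adjusted p of up to 0.0314 without ppsdes 8 h replicate 3.

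AT2G34810, for an FAD-binding protein of the berberine bridge enzyme family, went opposite ways late in the course. It stood at 10.7 to 15.1 CPM in mYFP and 9.55 to 11.4 CPM in ppsdes at 0 h. At 8 h it stood at 27.1, 32.3 and 27.4 CPM and 4.2, 2.53 and 3.29 CPM. The lines overlapped before and were well apart afterwards. The difference was 2.7 ± 0.37 (adjusted p = 1.32e-05) at 8 h and 0.19 ± 0.36 at 2 h (adjusted p = 0.993).

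Several genes rose in mYFP at low levels. AT4G23680, of the polyketide cyclase and lipid transport family, went from 0.0475–0.12 CPM to 7.74–10.5 CPM in mYFP, with 0.0985 to 0.363 CPM and 0.141 to 0.456 CPM in ppsdes. The difference of 6.01 ± 1.17 (adjusted p = 0.0054) was called in 5 of the 12 fits that left out a library, at 5.36 to 6.36 and an adjusted p of up to 0.115 without ppsdes 0 h replicate 1. The GDSL lipase gene AT1G54010 went from 0.0475–0.146 CPM to 3.46–6.46 CPM in mYFP, with 0.0518, 0.985 and 3.42 CPM and 0.0865, 0.71 and 0.0469 CPM in ppsdes. The ppsdes libraries were thus widely spread at 0 h, and the difference of 8.00 ± 1.38 (adjusted p = 0.00114) was lost without ppsdes 0 h replicate 3 (6.52, adjusted p = 0.0448).

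AT2G47010, annotated as a calmodulin-dependent kinase, rose in mYFP from 1.37–2.23 CPM to 7.61–11.9 CPM, with 0.563 to 1.47 CPM in ppsdes at 8 h. The difference of 3.12 ± 0.59 (adjusted p = 0.00357) was called in 5 of the 12 fits that left out a library, at 2.82 to 3.46 and an adjusted p of up to 0.0259 without ppsdes 8 h replicate 3. The peroxidase gene AT2G22420 rose in mYFP from 1.71–2.33 CPM to 6.42–9.33 CPM, with 1.64 to 3.05 CPM in ppsdes at 8 h. Its difference of 2.3 ± 0.45 (adjusted p = 0.00655) was called in 4 of the 12 fits that left out a library, at 2.09 to 2.52 and an adjusted p of up to 0.0418 without ppsdes 8 h replicate 1. AT5G66052, of unknown function, was lower in mYFP at 0 h, at 27.1, 11.3 and 7.12 CPM against 57.5, 86.4 and 67.3 CPM, and reached 59.5 to 75.9 CPM against 48.5 to 54.8 CPM at 8 h. Its difference of 2.61 ± 0.47 (adjusted p = 0.00211) was called in 8 of the 12 fits that left out a library, at 2.27 to 3.32 and an adjusted p of up to 0.0173 without mYFP 0 h replicate 2.

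MES1 (AT2G23620), which cleaves methyl salicylate, was near the limit of detection. It had 1, 0 and 0 counts in mYFP at 0 h and 6, 4 and 4 at 8 h. In ppsdes it had 2, 4 and 5 counts at 0 h and 0 in each library at 8 h. A floor of 3 counts was set over the ppsdes group at 8 h, with library sizes without TMM scaling. The 14 counts of mYFP at 8 h stood 5.05-fold above that floor, with no allowance for error in the mYFP counts. The difference was called in 3 of the 12 fits that left out a library, with an adjusted p of up to 0.0319.

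The 4 genes with a negative difference rose less or fell more in mYFP. CRF2 (AT4G23750), a cytokinin response factor of the AP2/ERF family, fell from 38.1, 38.9 and 79.2 CPM to 6.42, 5.47 and 6.21 CPM in mYFP and from 29.9, 23.9 and 20.5 CPM to 12.7, 12.3 and 11.4 CPM in ppsdes. Its library values were higher in mYFP before and lower afterwards, with no overlap at either time. Between the lines the gap was not called at 0 h (1.07, adjusted p = 0.0436) or at 8 h (-1.01, adjusted p = 0.0315). The difference of -2.08 ± 0.41 (adjusted p = 0.00725) was called in 3 of the 12 fits that left out a library, at -2.26 to -1.64 and an adjusted p of up to 0.0834 without mYFP 0 h replicate 3. AIF1 (AT3G05800), a helix-loop-helix protein of the brassinosteroid growth pathway, rose from 2.81–5.07 CPM to 28.8–34.5 CPM in mYFP and from 1.68–2.17 CPM to 48.4–57.4 CPM in ppsdes. Its difference of -1.86 ± 0.37 (adjusted p = 0.00677) was called in 2 of the 12 fits that left out a library, at -2.05 to -1.65 and an adjusted p of up to 0.0561 without mYFP 0 h replicate 3.

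ADS2 (AT2G31360), a fatty acid desaturase, rose from 44.5–52.6 CPM to 185–218 CPM in mYFP and from 26.2–34.8 CPM to 264–326 CPM in ppsdes. Its difference of -1.21 ± 0.23 (adjusted p = 0.00321) was called in 6 of the 12 fits that left out a library, at -1.32 to -1.11 and an adjusted p of up to 0.0238 without ppsdes 0 h replicate 2. AT1G19370, of unknown function, stood at 12.7, 11.7 and 11.6 CPM in mYFP and 4.66, 3.15 and 4.01 CPM in ppsdes at 0 h. At 8 h it stood at 37.7, 36.1 and 37.4 CPM and 34.6, 34.1 and 33.5 CPM. The lines were well apart at 0 h (1.6 ± 0.14, adjusted p = 1.66e-10) and close at 8 h (0.12 ± 0.13, adjusted p = 0.682). The difference was -1.48 ± 0.19 (adjusted p = 7.79e-06).

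The same difference was taken at earlier times, against the same 0 h libraries. At 2 h 22 genes were called positive (0.11%) and 2 negative (0.01%), and at 4 h as at 6 h 13 were positive (0.0652%) and 1 negative (0.00502%). Of the 26 genes positive at 8 h, 9 were called at 2 h, 9 at 4 h and 11 at 6 h. The difference of CYS2 was 7.24 at 2 h, 8.56 at 4 h and 8.75 at 6 h, and that of MES11 2.76, 3.14 and 4.01. That of EEL was 0.18, 1.41 and 2.71. At 6 h PCC1, AT3G22235 and AT5G03350 had 1.84, 0.33 and 0.15, none of them called. CYS2 and MES11 thus differed from 2 h on, and the PCC1 group had its call at 8 h alone.

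**Figure D4:**
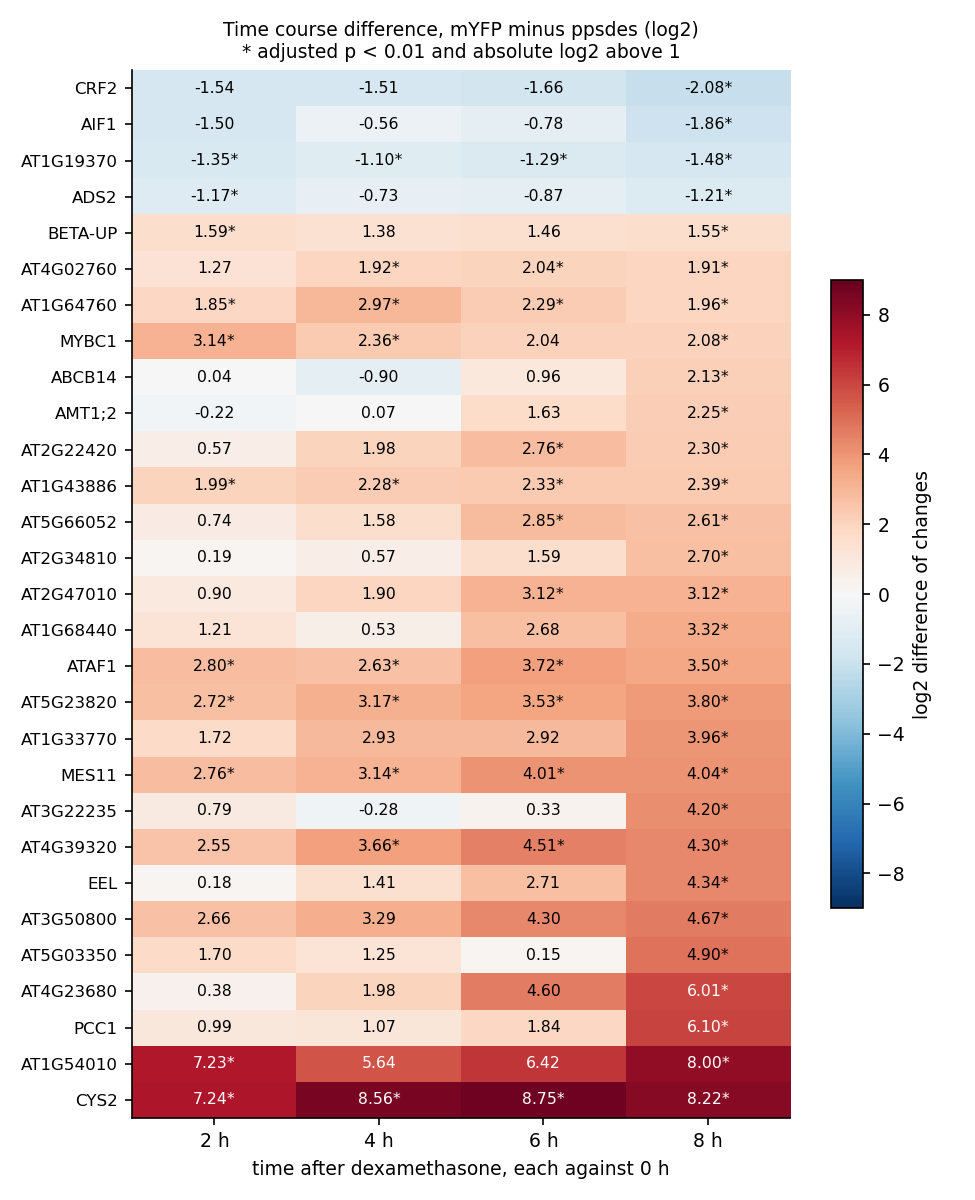
Difference of the courses (mYFP minus ppsdes, log2) at 2, 4, 6 and 8 h against 0 h for 29 of the 30 genes, MES1 being left out, with a star where it was called. CYS2 lies between 7.24 and 8.75 at all times, and AT3G22235 goes from 0.33 at 6 h to 4.2 at 8 h.

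Across 31 gene lists for hormones, clock, metabolism, stress and cell types, 1 of 521 genes tested was called, beside 0.151% of all genes. It was ATAF1 in the senescence and cell death list. The other 30 lists had 0 called members. A single call among so few genes is near the share of all genes, so nothing is read from these counts. The clock lists moved far in both lines. Morning and day clock genes (14) had a median change of -4.44 in mYFP and -4.48 in ppsdes, and evening genes (11) of 4.95 and 4.26. List medians of the difference ran from -1.6 to 1.04 beside -0.0027 for all genes, and 21 of 31 were within 0.5 of 0.

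The salicylic acid list had the highest median difference, 1.04 over 24 genes, with 0 called. At an unadjusted p under 0.05 it had 6 positive and 0 negative, beside 1015 and 925 of all 19929 genes. The median was 0.71 over the 18 with counts in all 4 groups and 0.46 over the 24 without mYFP 8 h replicate 1. It was then no longer the highest. Over genes with counts in all groups the iron list was above it (0.75), and without mYFP 8 h replicate 1 the aliphatic glucosinolate (0.64), indole glucosinolate, tryptophan and camalexin (0.58), jasmonate (0.53) and evening clock (0.51) lists were. WRKY70 (AT3G56400), a transcription factor of salicylic acid signalling, stood at 145, 85.0 and 130.1 CPM in mYFP and 78.0, 70.2 and 71.3 CPM in ppsdes at 0 h. At 8 h it stood at 158, 49.9 and 45.5 CPM and 5.02, 10.5 and 4.27 CPM. NIMIN-2 (AT3G25882), which binds NPR1, stood at 4.74, 1.21 and 1.28 CPM and 0.476, 0.101 and 0.0939 CPM at 8 h. Both genes separated the lines at 8 h, and mYFP 8 h replicate 1 was the highest library in both. Their differences of 2.97 ± 0.80 and 3.07 ± 0.83 missed the threshold (adjusted p = 0.108 and 0.109). Between lines at 8 h, 7 of the 24 genes were called higher in mYFP beside 1.36% of all genes. Without mYFP 8 h replicate 1 there were 4, in a fit that called 155 of all 19929 genes in either direction.

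The jasmonate list (30 genes) had a median difference of 0.56, with 0 called. Its member TIFY7 (AT1G70700), a JAZ repressor, stood at 21.8 to 38.7 CPM in mYFP and 5.77 to 11.2 CPM in ppsdes at 8 h, with a difference of 1.59 ± 0.47, adjusted p = 0.164. The cytokinin list (9 genes) had the lowest median, -1.6, with 0 called. At an unadjusted p under 0.05 it had 3 negative, beside 925 of all 19929 genes. ARR4 (AT1G10470), a cytokinin-induced response regulator, stood at 46.6, 19.97 and 69.8 CPM in mYFP and 93.5, 122 and 149.6 CPM in ppsdes at 8 h, from 171 to 211 CPM and 133 to 227 CPM, with a difference of -1.65 ± 0.60, adjusted p = 0.305. The mYFP libraries were below those of ppsdes at 8 h and overlapped them at 0 h. Nearest to a call among listed genes was IAA5 (AT1G15580), an early auxin-response gene, at -4.55 ± 0.96, adjusted p = 0.0128, with 0.536 to 1.57 CPM and 0.364 to 0.872 CPM in mYFP against 0.0492 to 0.104 CPM and 1.08 to 1.51 CPM in ppsdes.

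**Figure D5:**
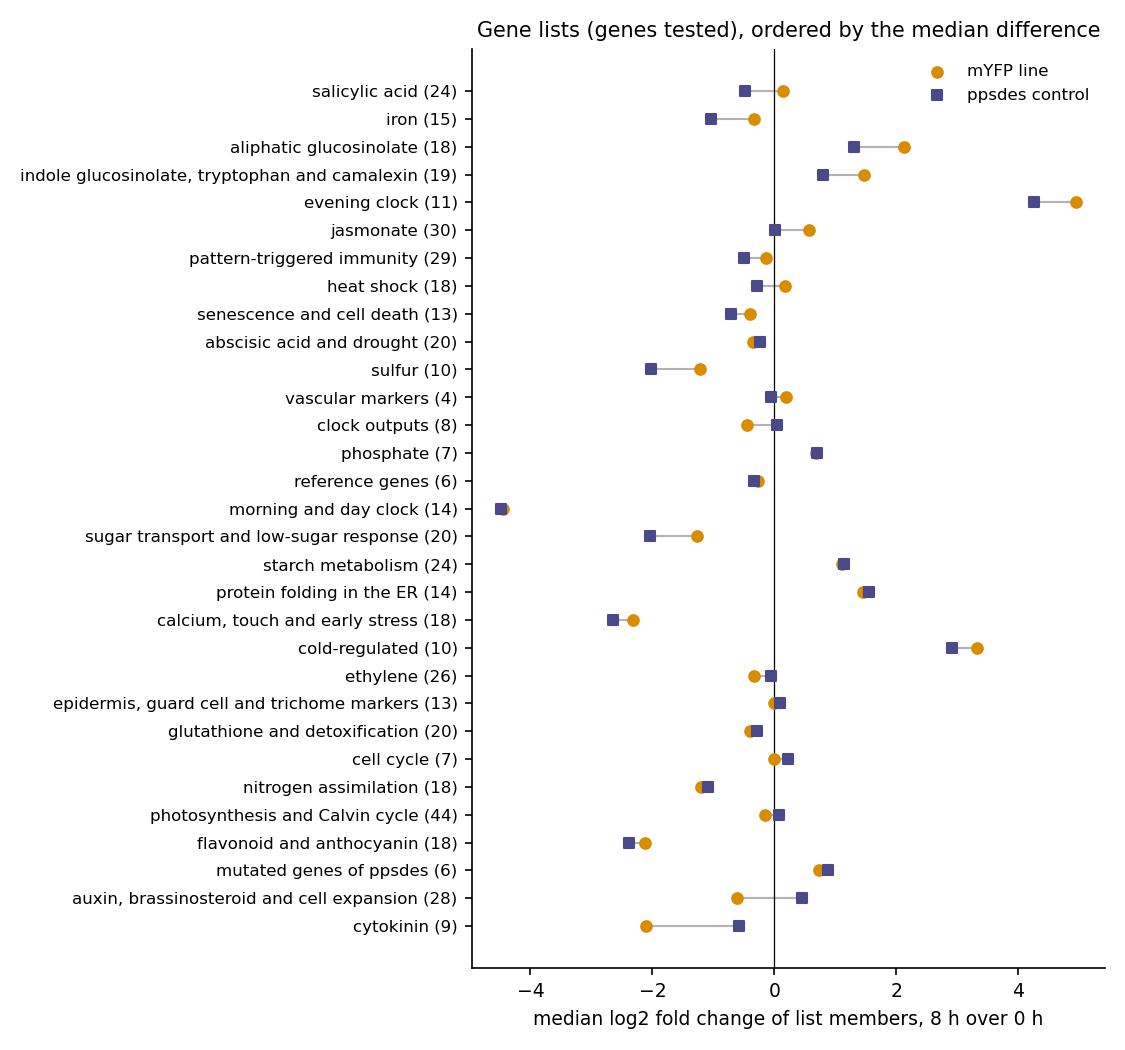
Median log2 fold change from 0 to 8 h of the members of each of 31 gene lists in mYFP and in ppsdes, with the number of genes tested, ordered by the median difference. The lines lie close for the morning and day clock (-4.44 and -4.48) and apart for cytokinin (-2.11 and -0.58).

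Leaf markers were present in every library. The 44 photosynthesis and Calvin cycle genes summed to medians of 235723 and 197400 CPM at 0 and 8 h in mYFP and 253535 and 231890 CPM in ppsdes. The 14 epidermis, guard cell and trichome markers summed to 4468 and 4575 CPM in mYFP and 3714 and 3923 CPM in ppsdes. The part of these levels in the differences was not tested, and in bulk leaf samples fewer cells of a type and less RNA per cell cannot be told apart.

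Of the other motifs, the W-box core TTGAC, bound by WRKY factors, was found in 42.3% of the 26 promoters and 51% of all, and the evening element AATATCT in 11.5% and 11.9%. The site of GAL4, the yeast factor whose DNA-binding domain is part of the activator in the pTA7002 vector used here, was searched after the results had been seen (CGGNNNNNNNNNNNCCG). It was found in 0 of the 26 windows and in 1.63% of all. With a share this low over all, 26 windows are too few for anything to be read from the 0.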

How the data were processed

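Raw counts per gene were deposited in a pair of tables with 30 libraries each, joined here by gene. Per the study's methods and the submitters' notes, the authors used FastQC 0.11.2, TopHat2 2.0.10 and HTSeq (its version is not given in the sources used here) on TAIR10, from TruSeq v2 libraries, which do not mark strand, so overlapping genes cannot be separated. The 5 HTSeq summary lines were left out. They equalled 1.33% to 1.74% (no feature), 0.362% to 0.642% (ambiguous) and 7.23% to 12.4% (not uniquely aligned) of all entries of a library.

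All 60 libraries entered 1 fit in edgeR 4.0.16 (R 4.3.3) with a mean per group, TMM scaling, filterByExpr and quasi-likelihood F tests, adjusted by the Benjamini-Hochberg method across the 19929 genes kept. CPM use TMM library sizes. Alternatives were DESeq2 1.42.0, its size factors, no filter, fewer libraries, a replicate block and each library left out. Named were genes with at least 5 CPM in a group that were called in all 12 fits without a library or moved in opposite ways, and per list the called or else the 2 members of smallest p. The other called genes were chosen after their values were seen. The comparison and lists were chosen with earlier results of these data known, and the 2 h changes and the TGACG and GAL4 motifs were added after seeing the data. Of 566 list entries 23 were dropped, their symbol not being in the annotation. Promoters came from RefSeq TAIR10.1 gene starts. The labels call the samples replicates of pooled plants, and p-values measure the spread between these. Floors cover counting error only.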

Additional observations from a re-analysis of the deposited data

Results flagged for a closer look

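In 30 genes the change from 0 to 8 h differed between mYFP and ppsdes by the test of the difference itself. The negative differences (log2) were -2.08 for CRF2, -1.86 for AIF1, -1.48 for AT1G19370 and -1.21 for ADS2. The positive differences were 8.22 for CYS2, 8.00 for AT1G54010, 6.1 for PCC1, 6.01 for AT4G23680, 4.9 for AT5G03350, 4.67 for AT3G50800, 4.34 for EEL, 4.3 for AT4G39320, 4.2 for AT3G22235, 4.04 for MES11, 3.96 for AT1G33770, 3.8 for AT5G23820, 3.5 for ATAF1, 3.32 for AT1G68440, 3.12 for AT2G47010, 2.7 for AT2G34810, 2.61 for AT5G66052, 2.39 for AT1G43886, 2.3 for AT2G22420, 2.25 for AMT1;2, 2.13 for ABCB14, 2.08 for MYBC1, 1.96 for AT1G64760, 1.91 for AT4G02760 and 1.55 for BETA-UP. The fitted 8.4 for MES1 depends on the prior count, since ppsdes had 0 counts at 8 h, and is no bound. Few counts over a group also underlie the sizes for AT1G54010 (6 in mYFP at 0 h) and AT4G23680 (5 in mYFP at 0 h). The same holds for AT3G50800 (7 in ppsdes at 8 h), so the sizes of these genes are uncertain. Groups of 3 libraries were not searched for outlying samples.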

How the results depend on the processing

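No difference of the 30 genes changed sign under the alternatives. For the time course difference at 8 h, 30 calls became 66 with DESeq2 (56 positive, 10 negative), 29 with DESeq2 size factors in edgeR, 29 without a filter, 43 with the 30 control libraries (30 positive, 13 negative) and 21 with the 12 libraries (17 positive, 4 negative). Of the 30 genes these kept 30, 29, 29, 23 and 14. Leaving out a library gave 15 to 33. For the gene list counts of the time course difference at 8 h, 1 call became 2 with the 30 control libraries and 2 with DESeq2, and stayed at 1 to 1 with a library left out. For mYFP against ppsdes at 0 h, 70 calls became 33 with the 12 libraries, 148 with DESeq2 and 28 to 71 with a library left out. For mYFP against ppsdes at 8 h, 346 calls became 612 with the replicate block and 155 to 356 with a library left out (155 without mYFP 8 h replicate 1). For 8 h against 0 h, mYFP line, a library left out gave 3908 to 4450 calls, and for 8 h against 0 h, ppsdes, 3657 to 4028. Leaving out a library leaves fewer samples, and otherwise the cause was not tested. Correlations between 0 and 8 h libraries of a line ran from -0.12 to 0.34 for the same replicate number. For different numbers they ran from -0.24 to 0.19. These values do not decide whether the numbers pair the samples, and the main fit used no pairing. With the replicate block the time course difference at 8 h gave 26 calls, 25 of them among the 30. Depth limits MES1, with at most 6 counts in these libraries.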

Other observations

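Just outside the threshold, and chosen after the values were seen, LURP1, a gene of the late defence response, had a difference of 6.68 ± 1.40 (adjusted p = 0.0121) and the vacuolar cation exchanger gene CAX3 one of 3.61 ± 0.83 (adjusted p = 0.0324). At 0 h LURP1 was already apart between the lines, at 19.7 to 29.7 CPM in mYFP and 4.45 to 5.76 CPM in ppsdes. Its 8 h levels were 61.2, 71.3 and 449 CPM in mYFP, where 1 library was far above the other two, and 0.188 to 0.557 CPM in ppsdes.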
